A study of Mus musculus with 25 samples.

Results

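The genes Aim2, Dynap, Itgb7, AI467606, Tspan13 and Htra3, 6 of the 24984 genes in the count table, were followed from cultured liver progenitor cells into tumours. They were chosen by their measured values, that is, because their read counts stepped upwards from control cells to cells with low and then high expression of oncogenic Ras. The rise in culture therefore chose the genes and is no finding. What the choice did not use is where tumour cells grown from such cells lay on that scale, and what the host cells around them expressed.

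The cultured cells were bipotential mouse embryonic liver (BMEL) cells, a non-transformed, clonally derived line of hepatic progenitors from C57BL/6 x C3H embryos. Control cells carried an empty vector (n = 3), and RasLOW and RasHIGH cells (n = 3 each) carried a bicistronic vector for human H-Ras G12V and a fluorescent protein and had been sorted by fluorescence intensity. Ras cells were injected into the liver of athymic nude mice, which lack a thymus and mature T cells, and the liver tumour and the peritoneal tumour of each of 4 mice were dissociated. Fluorescent cells were sorted as tumour cells (liver tumour, n = 4, and peritoneal tumour, n = 4) and the remaining cells as stroma (liver stroma, n = 4, and peritoneal stroma, n = 4). The paper describes the sequenced tumour cells as Venus-positive. Its paired liver and peritoneal tumours came from RasHIGH-Venus or RasLOW-mCherry cells, although both pools were made with either label. The population injected into these sequenced mice and their age are not stated in the sources used here, and the RasLOW and RasHIGH pools overlap in oncogene dose.

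Ras G12V stays in its active form and drives the MAPK Erk cascade, which ends in the transcription of immediate early genes, Ets factors and feedback inhibitors. The 6 genes are not a pathway. Aim2 encodes a sensor of cytosolic DNA that assembles an inflammasome with the adaptor Pycard and the protease Casp1, and it belongs to the interferon-inducible PYHIN family. Itgb7 encodes the beta7 integrin subunit, which pairs with alpha4 or alphaE and directs lymphocytes to mucosal tissues through Madcam1, Vcam1 or E-cadherin. Htra3 encodes a secreted serine protease known to act on the extracellular matrix and on TGF-beta signalling. Tspan13 encodes a membrane-spanning protein of the tetraspanin type, and Dynap encodes a membrane protein named for its binding to dynactin. AI467606 is a little characterised gene.

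Each library held between 20818989 and 51241336 counts, so that 3 counts corresponded to 0.0585 to 0.144 CPM. CPM is the usual count of a gene relative to the library's total, here scaled by TMM, a trimmed mean of ratios between libraries, with the SD over libraries. The mouse Hras gene stood at 80.4 ± 8.23 CPM in control, 78.6 ± 28.4 in RasLOW and 67.4 ± 15.2 in RasHIGH cells, and as the transgene is a human cDNA this does not check the labels. Keratins and Cdh1 were present in the cultured and tumour cells, whereas Epcam was at 0.33 CPM or below in these groups. Leukocyte markers (Ptprc, Laptm5, Coro1a, Cd52, Itgb2, Lcp1, Tyrobp and Fcer1g, summed) were between 3787 and 6988 CPM in stroma and between 16.3 and 123 CPM in tumour cells. The highest of the latter was the peritoneal tumour library of mouse 1, which also held the most RNA of 6 fibroblast markers (1446 CPM, where the lowest peritoneal tumour library held 209 CPM). With and without that library none of the 6 genes was called between the sites in tumour cells.

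Promoter sequences were taken from RefSeq (build GRCm38.p6), as the 250 bases before each gene's start. They were read for 5 of the 6 genes. Both strands were searched for 3 motifs, the AP-1 site TGANTCA, the Ets-type letters CCGGAA and the interferon response element of paired GAAA repeats. Only Aim2 held a match, to CCGGAA beginning 166 bases before the start, and 12% of 32851 promoters of the same length hold those letters. Other Ets-type sequences were not searched for, so the other promoters may hold some. The AP-1 letters occur in 6.75% and the interferon response letters in 2.98% of those promoters, and none of the 5 genes held either. The Aim2 site (chr1:173420426-173420455, + strand, motif in capitals) is shown because it is the single match, and on mm9 an annotated Aim2 exon lies within its window. The AI467606 (chr7:127091186-127091435, + strand) and Itgb7 (chr15:102231936-102232185, - strand) promoters are shown because these genes had both risen in culture and parted in tumours.
Aim2: cggctggtggctCCGGAAggtcttgggact
AI467606: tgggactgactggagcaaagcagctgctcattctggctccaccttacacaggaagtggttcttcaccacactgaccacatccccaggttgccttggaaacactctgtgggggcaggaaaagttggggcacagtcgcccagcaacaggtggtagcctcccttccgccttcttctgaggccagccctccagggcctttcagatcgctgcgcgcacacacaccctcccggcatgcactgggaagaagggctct
Itgb7: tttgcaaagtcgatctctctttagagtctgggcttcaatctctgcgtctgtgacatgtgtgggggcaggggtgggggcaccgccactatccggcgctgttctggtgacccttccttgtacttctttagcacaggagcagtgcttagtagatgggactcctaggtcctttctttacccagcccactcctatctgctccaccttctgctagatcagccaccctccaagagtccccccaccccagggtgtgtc
A match of letters is a description, and no match says only that these letters are not in the window. On mm9 the same AI467606 and Itgb7 sequences were found at chr7:134234700-134234949 and chr15:102062367-102062616, and no annotated exon lies in either.

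In culture all 6 genes were lowest in control and highest in RasHIGH cells, and the ranges of neighbouring groups did not overlap, as the choice of the genes ensures. The study's thresholds for cultured cells, a log2 fold change above 1.5 and a p under 0.01, were applied to edgeR's test. All 3 comparisons of cultured cells had to pass. The paper does not say whether its p was adjusted, and its supplement lists adjusted values. The p used here was unadjusted and may be looser. By these, 22 of 11750 genes rose gradually, which is 0.187%, and 5 of the 6 were among them. Htra3 missed the p threshold for RasLOW against control in this test, and its 3 control libraries spread from 0.209 to 3.18 CPM. The study itself used DESeq and removed genes expressed at low levels, and its list of gradual risers was these 6 genes, Htra3 included. Among the members the lowest step was 1.66 on the log2 scale for Itgb7, just inside the threshold, while Sord (1.42) lay outside it. A position was then computed for every library on the log2(CPM + 0.5) scale, with 0 at the control mean and 1 at the RasHIGH mean. The mean position of RasLOW cells ran from 0.43 for Aim2 (libraries from 0.34 to 0.56) to 0.71 for Itgb7 (0.52 to 0.84), and these ranges overlapped.

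**Figure D1:**
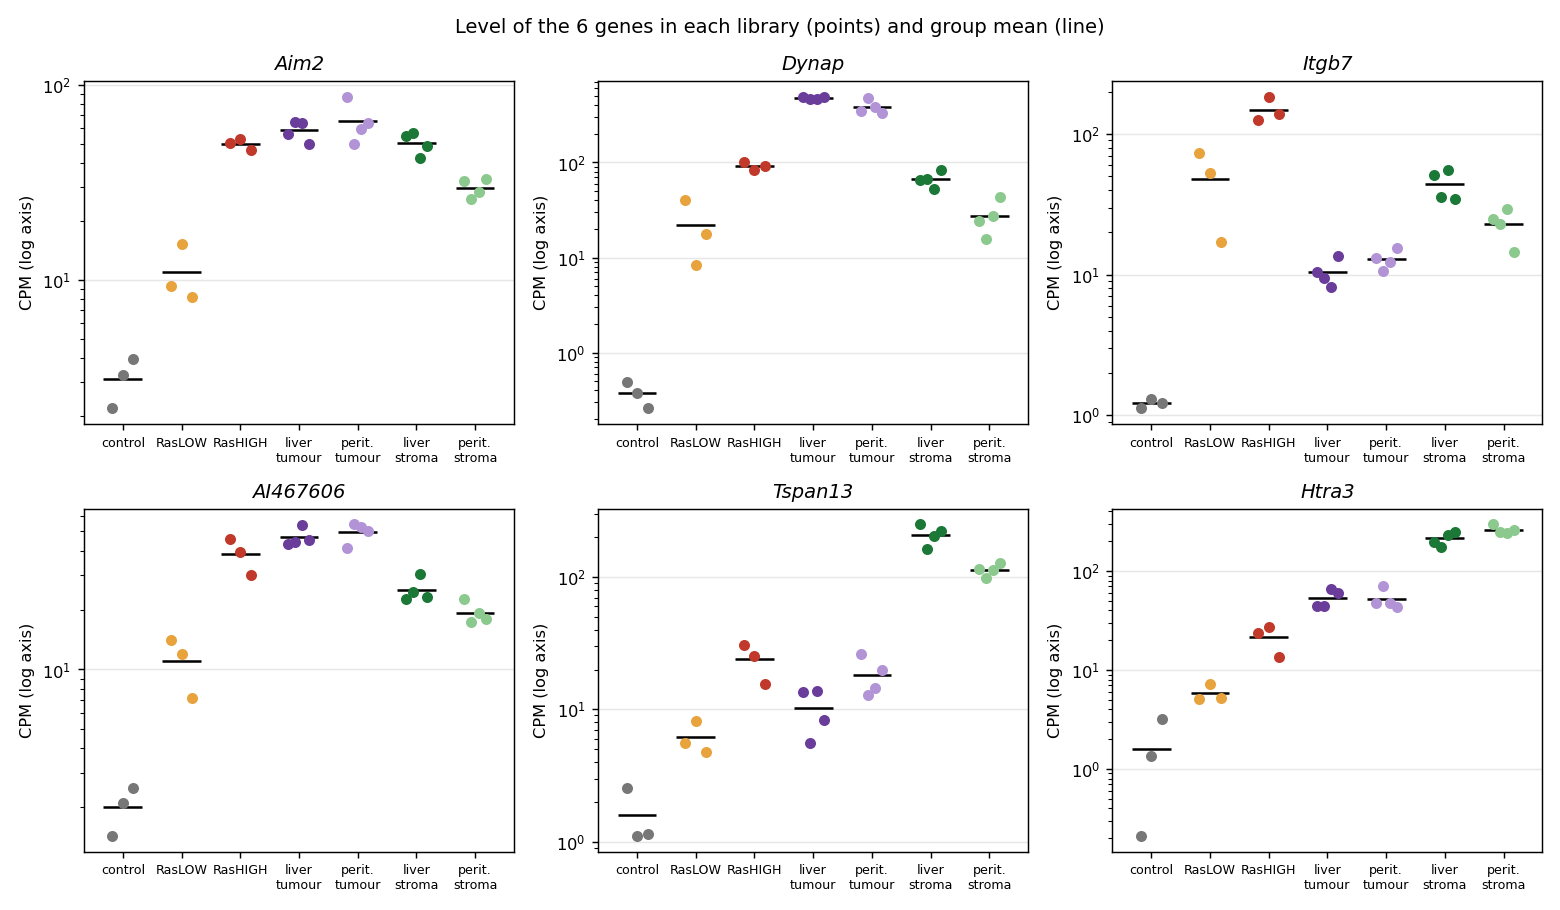
Level of each gene in the 25 libraries, in CPM on a log axis, with 1 point per library and a line at each group mean. Dynap is highest in tumour cells, Tspan13 and Htra3 are highest in stroma, and Itgb7 in tumour cells lies under RasLOW and RasHIGH cells.

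The tumour cells were not at a single place on this scale. Aim2 and AI467606 were near the RasHIGH mean (positions 1.06 and 1.07 in liver tumour, 1.09 and 1.10 in peritoneal tumour), and Dynap (1.35 and 1.31) and Htra3 (1.37 and 1.36) were above it. Tspan13 lay between the RasLOW and RasHIGH means (0.66 and 0.89). Its liver tumour range overlapped with RasLOW and its peritoneal tumour range with RasHIGH. Itgb7 lay at 0.41 and 0.46, below even RasLOW cells. Against RasHIGH cells 4 of the 6 genes were called at an adjusted p under 0.05 in liver tumour, where 45.1% of all genes were called, and 3 of the 6 in peritoneal tumour, where 37.9% were. Against RasLOW cells 5 of the 6 were called in liver tumour (53.3% of all genes) and all 6 in peritoneal tumour (48.2% of all genes). Against control cells all 6 were higher at both sites, where 68.2% and 63.4% of all genes were called in either direction. Within lane 3, the only lane shared by control and tumour libraries, mouse 4 exceeded the mean of control replicates 1 and 2 for each of the 6 genes, by 1.997 to 9.03 in liver and 3.21 to 8.48 in peritoneum on the log2(CPM + 0.5) scale. The cultured libraries also chose the genes, so the counts against them are a description. In vivo growth, dissociation, sorting and sequencing lane differed between tumour and RasHIGH libraries together and cannot be told apart.

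**Figure D2:**
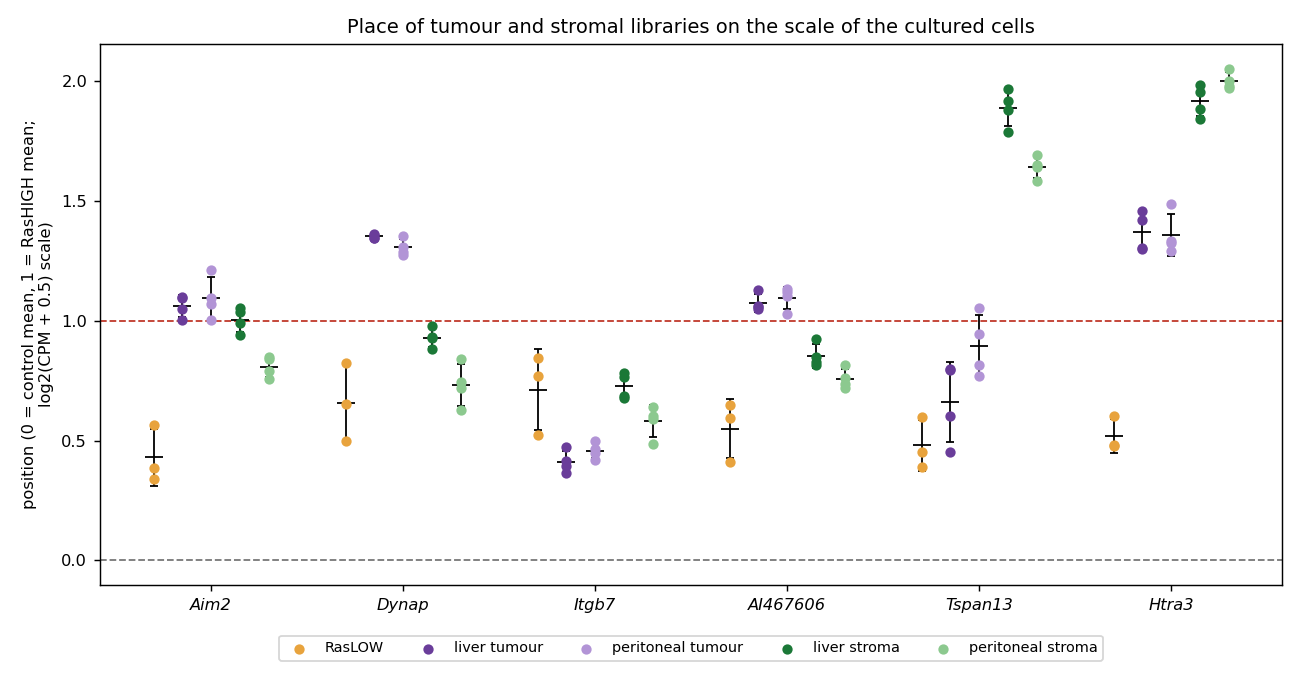
Position of RasLOW, tumour and stromal libraries between the control mean (0, grey dashes) and the RasHIGH mean (1, red dashes) on the log2(CPM + 0.5) scale, with 1 point per library and mean ± SD in black. Tumour cells sit near 1 for Aim2 and AI467606, near 1.3 to 1.4 for Dynap and Htra3, and at 0.41 and 0.46 for Itgb7.

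Aim2 (Entrez 383619), the DNA sensor, kept its RasHIGH level in tumour cells. It was at 2.2, 3.27 and 3.92 CPM in control, 9.35, 15.3 and 8.23 CPM in RasLOW and 50.3, 52.6 and 46.3 CPM in RasHIGH cells. In liver tumour cells of mice 1 to 4 it was at 56.3, 64.5, 63.9 and 49.9 CPM, and in peritoneal tumour cells at 87.1, 49.9, 59.6 and 64.2 CPM. The tumour ranges overlapped with RasHIGH at both sites and lay above RasLOW. The log2 fold change against RasHIGH was 0.24 ± 0.12 (SE; adjusted p = 0.143) in liver and 0.41 ± 0.19 (adjusted p = 0.119) in peritoneum. All Aim2 folds and adjusted p-values, like those of the other genes, come from edgeR's quasi-likelihood test, adjusted after Benjamini and Hochberg across every gene of the fit. On mm9 the gene spans chr1:175281010-175396171 (+ strand) in the annotation used, where it overlaps the span but no exon of the antisense gene Cadm3.

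Stroma also expressed Aim2, at 54.7, 56.8, 42.2 and 48.4 CPM in liver and 32.2, 25.9, 28.1 and 33 CPM in peritoneum. Every liver stroma library was above every peritoneal one. Its level in liver stroma overlapped with that in liver tumour cells (log2 fold change of tumour over stroma 0.19 ± 0.12, adjusted p = 0.165), whereas in the peritoneum tumour cells were 2.19-fold higher (1.19 ± 0.17, adjusted p = 2.26e-04). In order of level, peritoneal stroma lay between RasLOW and RasHIGH without overlap, and RasHIGH, liver stroma, liver tumour and peritoneal tumour overlapped from each to the next.

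AI467606 (Entrez 101602; chr7:134234950-134237563, + strand, mm9) followed Aim2 most closely of the 6. It was at 1.43, 2.1 and 2.52 CPM in control, 14.1, 12 and 7.13 CPM in RasLOW and 46.0, 39.4 and 30.0 CPM in RasHIGH cells. Liver tumour cells held 43.5, 44.3, 54.2 and 45.1 CPM and peritoneal tumour cells 41.1, 54.4, 52.8 and 50.2 CPM. These ranges overlapped with each other and with RasHIGH, with log2 fold changes over RasHIGH of 0.28 ± 0.16 (adjusted p = 0.176) and 0.38 ± 0.16 (adjusted p = 0.0992). Without RasHIGH replicate 1, the highest of its 3 libraries, both were called (adjusted p = 0.0233 and 0.0212). Stroma held less than tumour cells in every mouse, 22.7, 24.7, 30.5 and 23.3 CPM in liver and 22.6, 17.3, 19.3 and 18.1 CPM in peritoneum. The fold of tumour over stroma was 1.85 in liver (log2 0.86 ± 0.11, adjusted p = 2.49e-05) and 2.56 in peritoneum (1.42 ± 0.12, adjusted p = 1.25e-05).

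Dynap (Entrez 75577, annotated on mm9 as 2310002L13Rik at chr18:70400083-70404052, - strand) was close to absent in control cells and highest in tumour cells. It was at 0.489, 0.379 and 0.259 CPM in control, 39.9, 8.3 and 17.6 CPM in RasLOW and 102, 83.3 and 91.3 CPM in RasHIGH cells. Tumour cells then held several times the RasHIGH level, with 493, 464, 460 and 485 CPM in liver and 350, 475, 386 and 332 CPM in peritoneum. No tumour library came near the RasHIGH range, and the folds over RasHIGH were 5.16 (log2 2.37 ± 0.12, adjusted p = 4.58e-06) and 4.19 (2.08 ± 0.15, adjusted p = 1.53e-04). Per kilobase of exon it was the most abundant of the 6 genes in tumour cells, at 457 ± 15.6 CPM per kb in liver tumour against at most 24.4 for any of the others there. In stroma it was at 64.8, 66.9, 52.3 and 82.8 CPM in liver and 24.3, 15.8, 27.3 and 43 CPM in peritoneum. Tumour cells were 7.13-fold above stroma in liver (log2 2.81 ± 0.13, adjusted p = 2.19e-09) and 14-fold in peritoneum (3.87 ± 0.31, adjusted p = 8.59e-06).

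Htra3 (Entrez 78558; chr5:35994682-36022431, - strand, mm9), the secreted protease, was higher in tumour cells than in any culture and higher again in stroma. It was at 0.209, 1.34 and 3.18 CPM in control, 5.1, 7.22 and 5.19 CPM in RasLOW and 23.4, 27.1 and 13.6 CPM in RasHIGH cells. Liver tumour cells held 44.6, 44.1, 66.2 and 59.9 CPM and peritoneal tumour cells 47.1, 70.9, 48 and 43.2 CPM. All 8 tumour libraries exceeded all cultured ones, and the log2 fold change over RasHIGH was 1.33 ± 0.25 (adjusted p = 0.00295) in liver and 1.31 ± 0.27 (adjusted p = 0.00709) in peritoneum. Stroma held 195, 175, 233 and 251 CPM in liver and 297, 247, 242 and 260.5 CPM in peritoneum, above all tumour libraries. Tumour cells were 3.97-fold below stroma in liver (log2 -2.02 ± 0.16, adjusted p = 2.41e-07) and 5.00-fold below in peritoneum (-2.26 ± 0.17, adjusted p = 6.36e-06).

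Tspan13 (Entrez 66109; chr12:36741144-36769087, - strand, mm9), the tetraspanin, was far higher in stroma than in any Ras-expressing cell. It was at 2.55, 1.1 and 1.15 CPM in control, 5.57, 8.23 and 4.74 CPM in RasLOW and 30.5, 25.5 and 15.5 CPM in RasHIGH cells. Liver tumour cells held 13.6, 5.6, 13.8 and 8.32 CPM, all under the RasHIGH range but overlapping with RasLOW. Peritoneal tumour cells held 26.1, 12.8, 14.4 and 19.9 CPM, above RasLOW and overlapping with the RasHIGH range. The log2 fold change over RasHIGH was -1.21 ± 0.34 (adjusted p = 0.0181) in liver and -0.36 ± 0.30 (adjusted p = 0.372) in peritoneum. The liver call was lost without RasHIGH replicate 2 (adjusted p = 0.0528) or without liver tumour mouse 4 (adjusted p = 0.0567). Stroma held 250.4, 162, 203 and 221 CPM in liver and 115, 97.7, 113 and 128 CPM in peritoneum, far above the cultures and tumour cells. The folds of stroma over tumour cells were 20.3 in liver (log2 of tumour over stroma -4.37 ± 0.27, adjusted p = 2.75e-08) and 6.20 in peritoneum (-2.57 ± 0.23, adjusted p = 1.47e-05).

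Itgb7 (Entrez 16421; chr15:102046426-102062366, - strand, mm9), the beta7 integrin subunit, parted from the other 5 genes in tumours. It was at 1.12, 1.31 and 1.22 CPM in control, 72.7, 52.7 and 17.1 CPM in RasLOW and 126, 184 and 138 CPM in RasHIGH cells. Liver tumour cells held 10.4, 9.47, 8.15 and 13.6 CPM and peritoneal tumour cells 13, 10.6, 12.2 and 15.4 CPM. Every tumour library was above control and below every RasLOW and RasHIGH library, so the gene was 14.3-fold below RasHIGH in liver (log2 -3.84 ± 0.21, adjusted p = 9.16e-06) and 11.6-fold below in peritoneum (-3.53 ± 0.18, adjusted p = 4.50e-05). It was also below RasLOW (log2 -2.18 ± 0.41, adjusted p = 0.00201 in liver, and -1.87 ± 0.40, adjusted p = 0.00633 in peritoneum), the only member with that direction. Stroma held 51.3, 35.6, 55.5 and 34.6 CPM in liver and 24.8, 23, 29.4 and 14.5 CPM in peritoneum, so that the host fraction was 4.25-fold above tumour cells in liver (log2 of tumour over stroma -2.12 ± 0.20, adjusted p = 1.06e-06). In peritoneum the stroma and tumour ranges overlapped, with a log2 fold change of -0.77 ± 0.21 (adjusted p = 0.00885).

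Of the tumour against stroma comparisons, 5 of the 6 genes were called in the liver, where 77.8% of all genes were, and all 6 in the peritoneum, where 76.6% were. A share of this size is close to the background. The directions split the 6 into AI467606 and Dynap, higher in tumour cells at both sites, Tspan13, Htra3 and Itgb7, higher in stroma at both sites, and Aim2, higher in tumour cells in the peritoneum.

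Between the sites, tumour cells of liver and peritoneum were compared to ask whether the genes differed with tumour location. None of the 6 genes was called by edgeR, where 3.2% of all genes were (419 of 13074). At an unadjusted p under 0.05 there were 2 of the 6 genes and 2641 of all. The values were -0.16 ± 0.16 for Aim2, -0.09 ± 0.10 for AI467606 and 0.03 ± 0.17 for Htra3 as log2 of liver over peritoneum. Dynap was at 0.29 ± 0.10 (adjusted p = 0.152), Itgb7 at -0.31 ± 0.17 (adjusted p = 0.358) and Tspan13 at -0.84 ± 0.30 (adjusted p = 0.157). These 3 were at unadjusted p = 0.0181, 0.106 and 0.0193, and the ranges of the sites overlapped for all 6 genes. Within mice, liver was below peritoneum in 4 of 4 for Tspan13 and for Itgb7 and above it in 3 of 4 for Dynap, and the other genes were split 2 to 2. With mouse as a replicate block the adjusted p was 0.0969 for Tspan13 and 0.236 for Itgb7. DESeq2 called Tspan13 (adjusted p = 0.0445), and without peritoneal tumour mouse 2 edgeR called Dynap (adjusted p = 0.0475). Within the 3 sequencing lanes the Tspan13 difference was -1.52, 0.02 and -1.21 and that of Dynap 0.45, 0.10 and 0.55 on the log2(CPM + 0.5) scale.

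In stroma the sites did differ. Aim2, Dynap, Itgb7 and Tspan13 were called higher in liver stroma, 4 of the 6 genes, where 33.4% of all genes were called in either direction. The log2 fold changes were 0.72 ± 0.12 for Aim2 (adjusted p = 0.0016), 0.83 ± 0.14 for Tspan13 (adjusted p = 0.00129), 0.90 ± 0.22 for Itgb7 (adjusted p = 0.0122) and 1.23 ± 0.26 for Dynap (adjusted p = 0.00583). For each of these 4 genes all liver stroma libraries lay above all peritoneal ones, and the difference had the same sign within each of the 3 lanes. AI467606 (0.34 ± 0.12, adjusted p = 0.0605) and Htra3 (-0.34 ± 0.12, adjusted p = 0.0556) were not called. Dynap alone passed the study's threshold for tumours. It asks for more than 1 in absolute log2 fold change besides a p under 0.05, taken here before adjustment. The epithelial markers Krt8, Krt18 and Krt19 were also higher in liver stroma. The part of tumour cells in stromal Dynap was not tested.

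**Figure D3:**
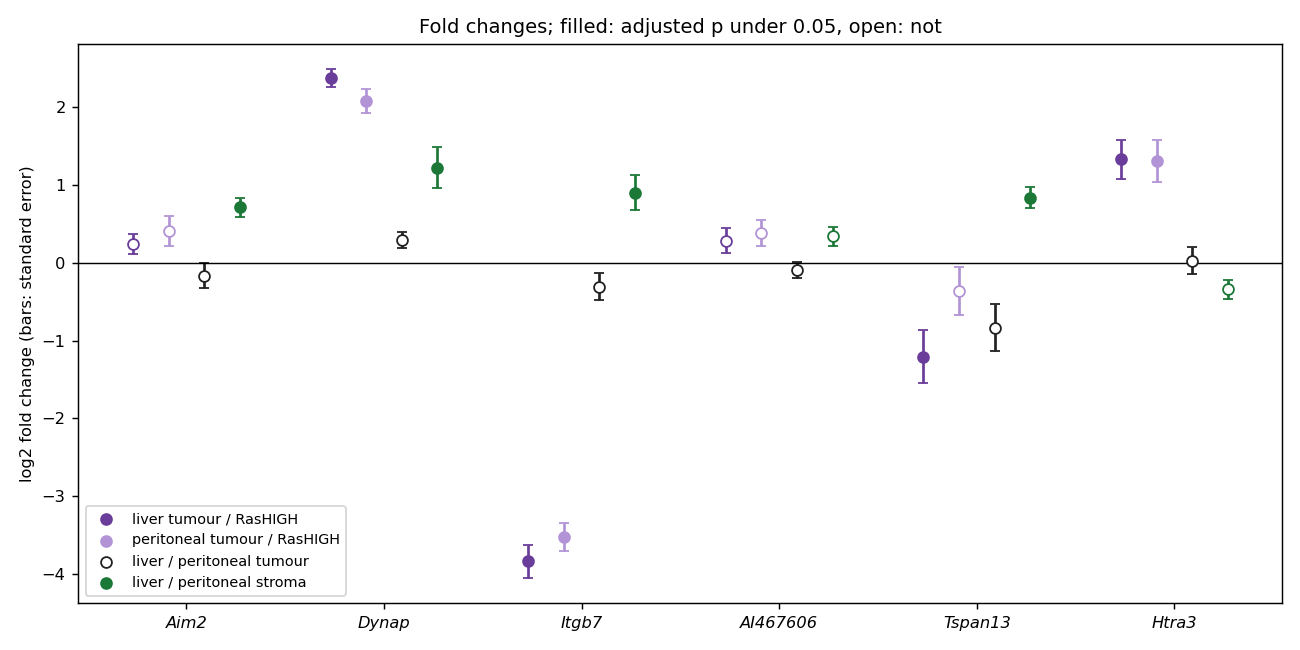
Log2 fold changes with standard errors of the 6 genes for tumour cells against RasHIGH cells and for liver against peritoneum in tumour cells and in stroma. Filled points passed an adjusted p under 0.05 and open points did not, and Itgb7 lies at -3.84 and -3.53 against RasHIGH while all 6 black site points in tumour cells are open.

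The site effect in tumour cells was then tested against the site effect in stroma as an interaction of site and compartment. It was called for 4 of the 6 genes, where 14.3% of all genes were called. The difference of log2 fold changes was -1.75 ± 0.37 for Tspan13 (adjusted p = 0.00516), -1.29 ± 0.31 for Itgb7 (adjusted p = 0.0111), -0.96 ± 0.21 for Aim2 (adjusted p = 0.00745) and -1.01 ± 0.32 for Dynap (adjusted p = 0.0435). All 4 were thus relatively higher in the liver in stroma than in tumour cells, and the median of all genes was -0.12. The Dynap call was lost in a fit to all 25 libraries (adjusted p = 0.199) and on leaving out any 1 of 13 of the 16 libraries, the exceptions being liver stroma mouse 3, peritoneal tumour mouse 4 and peritoneal stroma mouse 4. AI467606 (-0.51 ± 0.17, adjusted p = 0.0542) was called with mouse as a replicate block (adjusted p = 0.0452), and Htra3 (0.29 ± 0.24, adjusted p = 0.457) was not.

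Stromal levels were set beside the tumour cell markers in the same libraries, since the gate took all cells without fluorescence. In bulk samples fewer cells of a type and less RNA per cell cannot be told apart. The 5 epithelial markers (Krt8, Krt18, Krt19, Epcam and Cdh1, summed) were in stroma at 14.8 to 16.6% of their level in the tumour cells of the same mouse in liver, and at 7.12 to 11.7% in peritoneum. Krt8, Krt18 and Krt19 were themselves higher in liver than in peritoneal stroma (log2 0.55, 0.70 and 0.86), and 4 of the 5 markers were called in the interaction in the direction of Dynap. The same share of the tumour cells' Dynap amounted to 97.4 to 131% of the Dynap measured in liver stroma and 90.3 to 214% of that in peritoneal stroma. The share was at or above the measured Dynap in 6 of 8 pairs and slightly below it in mouse 4 at both sites. The part of tumour cells in stromal Dynap was not tested.

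For Aim2 the same share covered 15.3 to 22.5% of the measured level in liver stroma and 13.7 to 22.7% in peritoneal stroma, and for AI467606 26.4 to 32.2% and 14.7 to 32.4%. For Itgb7 it covered 2.18 to 6.54% and 3.18 to 12.4%, and for Tspan13 and Htra3 at most 4.22%. These shares assume that all tumour cell RNA is carried in the ratio of the 5 markers. In the other direction, leukocyte markers in tumour cells were at 0.527 to 0.766% of the stroma of the same mouse in liver and 0.386 to 2.81% in peritoneum. That share of stromal Tspan13 covered 7.79 to 22.2% of the tumour level in liver and 3.02 to 12.4% in peritoneum, and the share of 6 fibroblast markers (0.497 to 1.51% and 0.372 to 2.76%) up to 40.1% in liver and 12.2% in peritoneum. For Htra3 the leukocyte and fibroblast shares reached 17.7% and 17.3% in peritoneal tumour mouse 1 and at most 6.31% in liver tumour cells.

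Macrophage and endothelial markers gave larger shares. Macrophage markers summed to 330.4 to 495 CPM in tumour cells, 231 to 325 CPM in RasHIGH cells and 2679 to 5019 CPM in stroma, so tumour cells held 10.1 to 12% of the stromal sum in liver and 7.55 to 13.1% in peritoneum. That share of stromal Tspan13 amounted to 149.6 to 347% of the Tspan13 measured in liver tumour cells and 43.5 to 100.3% in peritoneal ones. For Htra3 it was 35.6 to 51.7% and 45.5 to 61.9%, for Itgb7 27.4 to 69.0% and 7.13 to 28.5%, and for Aim2, AI467606 and Dynap at most 11.5%. Mrc1, itself a gradual riser in culture, made up 96.5 to 98.7% of the macrophage sum in RasHIGH cells and 72.2 to 95.3% of it in tumour cells, but 15.6 to 29.5% in stroma.

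Endothelial markers summed to 6.04 to 10.7 CPM in RasHIGH cells, 54.4 to 236 CPM in tumour cells and 334 to 1047 CPM in stroma, which put tumour cells at 10.4 to 36.3% of stroma in liver and 14.5 to 70.7% in peritoneum. That share came to 299.7 to 537% and 102 to 539% of the measured Tspan13, 41.1 to 128% and 73.2 to 292% of Htra3, and 31.5 to 248% and 34.9 to 153% of Itgb7. For Aim2, AI467606 and Dynap it was at most 36.7%. Cdh5 made up 97.0 to 100% of the endothelial sum in RasHIGH cells, 75.4 to 98.3% in tumour cells and 19.6 to 33.6% in stroma. Pecam1 was at means of 1.96 and 6.54 CPM in liver and peritoneal tumour cells against 203 and 163 CPM in stroma. The part of these cells in the tumour cell values was not tested.

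**Figure D4:**
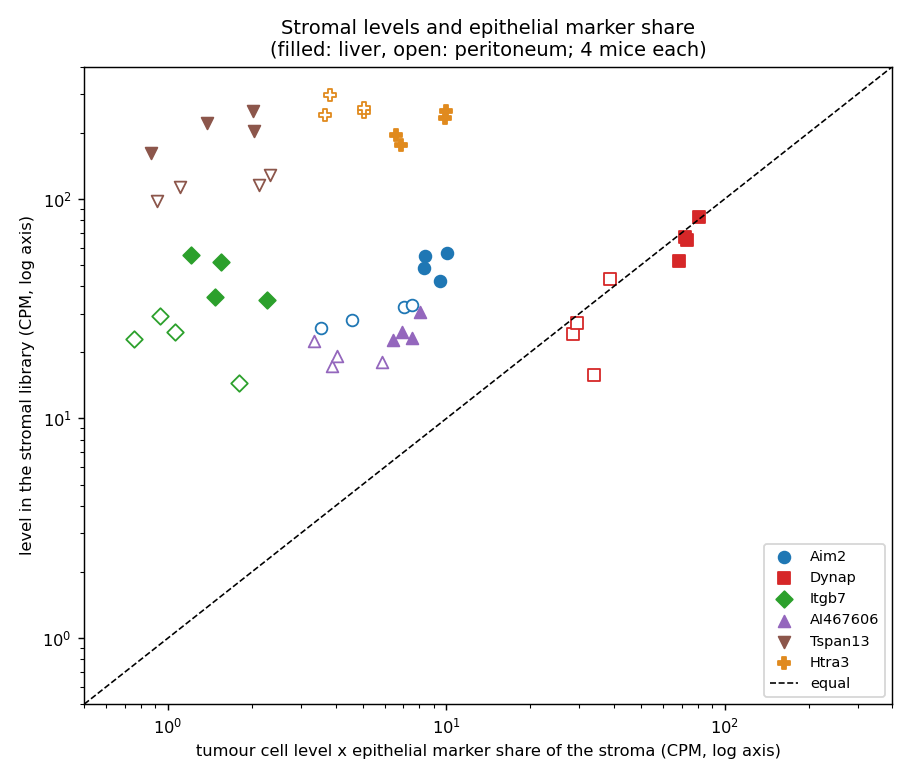
Level of each gene in a stromal library (vertical, CPM, log axis) against the tumour cell level of the same mouse and site multiplied by the epithelial marker share of that stroma (horizontal, CPM, log axis), with filled symbols for liver and open ones for peritoneum. The Dynap symbols lie near the dashed line of equality, while Tspan13, Htra3 and Itgb7 lie far above it.

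The partners of these genes were counted from lists of their pathways. The AIM2 inflammasome list has 17 genes in the table. Pycard and Casp1 were at 0 CPM in all 9 cultures, where 3 counts would be 0.144 CPM or less, and at means of 0.08 and 0.05 CPM in liver tumour cells. In liver stroma they were at 24.0 and 24.8 CPM. In liver tumour cells against RasHIGH 5 of 12 tested genes were called higher and 1 lower, where 45.1% of all genes were called, and the list's median log2 fold change of 0.33 stood beside -0.01 for all genes. The largest was Il1b, at a mean of 9.31 CPM in liver tumour cells and 4099 CPM in liver stroma, followed by Nlrp3 at 4.92 and 773 CPM. All 8 leukocyte markers were also called higher in liver tumour cells than in RasHIGH. Their share of stromal Il1b came to 17.6 to 29.4 CPM, above the 5.70 to 11.7 CPM measured in liver tumour cells, and that of Nlrp3 to 4.30 to 5.70 CPM, where 4.20 to 5.76 CPM were measured. Against stroma, 16 of 17 were called lower in liver tumour cells, where 77.8% of all genes were called in either direction, and the remaining gene was Ifi203, a PYHIN relative of Aim2, at -0.13. Reads of such relatives can be shared between family members, and how the counting treated them is not given in the sources used here.

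Of the beta7 integrin partners and ligands, Itga4 was at means of 0.67 CPM in RasHIGH, 3.40 CPM in liver tumour and 446 CPM in liver stroma. Itgae was at 0.04, 0.22 and 105 CPM in the same groups. So the alpha subunits that pair with beta7 were near 0 in the cells that had gained Itgb7 in culture. Cdh1, the E-cadherin ligand, was at 411 CPM in RasHIGH and 435 CPM in liver tumour cells, and Madcam1 was at 0.11 CPM or below in every group. Against RasHIGH, 4 of 8 tested genes of the list were called higher in liver tumour cells and 1, Vcam1, lower (-0.91), where 45.1% of all genes were called, with Fn1 at 5.86 and Itga4 at 2.34 the largest. The leukocyte share of stromal Itga4 came to 2.14 to 3.56 CPM, beside 2.21 to 4.08 CPM measured in liver tumour cells.

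The HtrA protease and TGF-beta list had 4 of 7 tested genes higher and 1 lower in both tumour sites against RasHIGH, where 45.1% (liver) and 37.9% (peritoneum) of all genes were called. Tgfb3 rose by 4.43 and 4.13, Inhba by 2.82 and 2.21 and Tgfb1 by 2.33 at both sites on the log2 scale, and Htra2 fell by 1.20 and 0.77. Of the other tetraspanins 8 of 22 tested were higher and 6 lower in liver tumour cells against RasHIGH, and 9 of 21 were higher and 1 lower in peritoneal tumour cells, beside the same shares of all genes. Of 11 dynactin subunits 1 was called against RasHIGH in liver tumour, where 45.1% of all genes were called. Their median log2 fold change there was 0.20, beside -0.01 for all genes.

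The Erk output list (18 genes) held feedback inhibitors, Ets factors and other Erk targets such as Egr1, Fosl1 and Ccnd1. Its summed CPM did not rise in step with Ras in culture. Medians were 5477, 6209 and 5880 CPM in control, RasLOW and RasHIGH cells, with overlapping ranges. Abundant genes weigh most in such a sum, and the steps of single list genes in culture were not compared. By gene, the list's median log2 fold change in liver tumour cells was 0.96 over control, 0.61 over RasLOW and 0.29 over RasHIGH. In peritoneal tumour cells these medians were 1.09, 0.64 and 0.28. So the typical list gene was furthest below tumour cells in control and nearest to them in RasHIGH cells. By qPCR the paper reported an Erk target signature that differed between RasLOW and RasHIGH cells. Of 17 list genes tested here, 5 were higher and 2 lower in liver tumour cells against RasHIGH. In peritoneal tumour cells 2 were higher and 1 lower, and the medians were 0.29 and 0.28. The called shares lay below those of all genes (45.1% and 37.9%). Dusp5, a nuclear Erk phosphatase, rose by 2.03 and 1.74, and Ier3, an immediate early gene, by 1.58 and 1.53. Spry1, a feedback inhibitor, fell by 1.06 in liver. Dusp6 (-0.39, adjusted p = 0.0728) and Etv4 (-0.05, adjusted p = 0.794) were not called there.

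The 17 other genes that rose past the same thresholds were compared with the 6. The cultures chose these genes too, so their counts and folds against RasHIGH are a description. In liver tumour cells against RasHIGH 8 of the 17 were called higher and 3 lower, and in peritoneal tumour cells 5 and 2, where 45.1% and 37.9% of all genes were called. The 5 with the largest step from RasLOW to RasHIGH, Tm4sf1, Tmem132c, Kcnn4, Kif21b and Dlg3, were at 3.22, 1.71, 2.28, 1.86 and 0.98 in liver tumour cells over RasHIGH, all called. In peritoneal tumour cells Tm4sf1 (3.70), Kcnn4 (2.43) and Dlg3 (1.10) were called and Tmem132c (0.01) and Kif21b (0.59) were not. Between the sites in tumour cells 3 of the 17 were called (3.2% of all genes), with Tmem132c higher in liver (1.70) and Col6a3 (-1.11) and Tm4sf1 (-0.47) higher in peritoneum. Against the same cultures, Pde9a (-1.95 and -1.75) and Mndal (-0.67 and -0.71) were lower than RasHIGH at both sites, so Itgb7 was not alone in falling, but it fell furthest of the 22 genes at both sites.

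Over all 25 libraries, the genes whose log2(CPM + 0.5) ran most like each of the 6 were found among 13184 genes. These correlations share libraries and depth, include the cultures that chose the 6 genes, and are a description. Aim2 ran most like AI467606 (Pearson r = 0.96), Ifi203 (0.95) and Parp8 (0.93), and AI467606 like Zfp36l2 and Dlg3 (both 0.96) besides Aim2. Dynap ran like Zfp36l2 (0.98), Plxna4 (0.97) and Arap3 (0.96). Tspan13 ran like Tnfrsf1b and Gla (both 0.97) and Htra3 like Cd53 and Adcy7 (both 0.97) and Arid5a (0.96). Itgb7 had the weakest likenesses, to Deptor (0.91), Fam126a and Klhdc3 (both 0.89).

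Over the 17 libraries of BMEL-derived cells alone, cultured and tumour, Aim2 ran with AI467606 (0.98), Htra3 (0.96), Dynap (0.95) and Tspan13 (0.87). Itgb7 stood apart from all of them, with r between 0.35 for Htra3 and 0.70 for Tspan13. Its nearest genes there were Fam126a (0.95), Nkain1 (0.94) and Klhdc3 (0.94).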

How the data were processed

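RNA sequencing libraries were made by the authors with the NuGEN Universal Plus mRNAseq kit, and reads were aligned to mm9 with TopHat2, per their methods; the submitters' notes also name FastQC and Bowtie 0.12.2. The deposited values are raw counts per gene, not normalized. The counting program, its strand setting and the annotation are not given in the sources used here. The 6 genes and the lists and motifs named in the text were chosen with earlier results of these data known, and the comparison of marker shares was made after values had been seen.

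For each pair of groups counts were fitted with edgeR 4.0.16 under R 4.3.3 (filterByExpr, minimum count 10, TMM, quasi-likelihood F-test, Benjamini-Hochberg over all genes tested). A gene was called at an adjusted p under 0.05. Levels are CPM with TMM over all 25 libraries, and positions use a pseudocount of 0.5. Alternatives were DESeq2 1.42.0, RLE normalization, no filter, the study's threshold, a fit to all libraries, mouse as a replicate block, other pseudocounts and leaving out each library. The test was tried on simulated counts first.

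The text names the 6 genes, Hras, the 3 genes most like each, the 5 other gradual risers with the largest step from RasLOW to RasHIGH, and up to 4 genes of a list by size of fold change; the remaining risers, partners and markers named were chosen after their values were seen. Tumour and stroma libraries of equal number come from the same mouse, so a paired fit was made; deviations of same-numbered libraries correlated at 0.17 on average between tumour cells and stroma of a site and at -0.06 and 0.10 between sites. Replicates correlated between 0.968 and 0.992. P-values of cultures rest on 3 libraries a group, described as independent samples. The study describes no molecular identifiers, so the 3-count floor covers counting error only. Gene positions come from GENCODE M1 on mm9. Control replicates 1 and 2 were sequenced in lane 3, the other cultures in lane 4 and tumour and stroma libraries in lanes 1 to 3. Some genes that the naming rules would have listed are not reported here.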

Additional observations from a re-analysis of the deposited data

Results flagged for a closer look

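One liver tumour library stood apart for AI467606. Mouse 3 was at 54.2 CPM, where the other 3 liver tumour libraries lay between 43.5 and 45.1 CPM, and the gap exceeded Dixon's critical value for 4 samples. Of 24 groups of 4 tested this was the single case, and chance gives about 1 in 20.

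The effect of site differed between tumour cells and stroma for 4 genes by edgeR's interaction test with Benjamini-Hochberg adjustment. The difference of log2 fold changes was -0.96 for Aim2, -1.01 for Dynap, -1.29 for Itgb7 and -1.75 for Tspan13. In stroma these genes were higher in the liver in all 4 libraries than in any of the peritoneum, while their tumour cell ranges overlapped. For Dynap, the epithelial markers Krt8, Krt18, Krt19 and Cdh1 were called in the same interaction at -0.88, -0.95, -0.99 and -0.69, and their part in the Dynap value was not tested.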

How the results depend on the processing

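Of the log2 fold changes of the 6 genes under all alternatives, 857 kept direction and call, 24 lost the call, 13 gained one and 6 changed sign. The count called between the sites in tumour cells was 1 with DESeq2 and ranged from 0 to 1 when single libraries were left out. In stroma it fell to 1 at the study's threshold, and for the interaction to 2 in a fit to all libraries. The sign changes were in the tumour site comparison, where leaving out a library gave -0.29 to 0.017 for Aim2 and -0.10 to 0.20 for Htra3 (log2). In the paired fit, with mouse as a replicate block, the interaction of AI467606 was called (-0.51), and no other call changed.

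The position of Dynap in liver tumour was 1.31 and 1.39 at pseudocounts of 0.1 and 1, and in peritoneal tumour 1.27 at 0.1. Leaving out single libraries gave 1.34 to 1.37 for Dynap, 1.03 to 1.11 for AI467606 and 1.27 to 1.45 for Htra3 in liver tumour and 1.26 to 1.44 for Htra3 in peritoneal tumour. Over all genes, the count called between the sites in tumour cells was 1260 with DESeq2, 102 with the replicate block and 41 to 884 when single libraries were left out, against 419. Against RasHIGH 3154 of all genes were called in peritoneal tumour cells without RasHIGH replicate 2, against 4846, and 1180 in the interaction in a fit to all libraries, against 2191. The cause was not tested. The study's threshold asks for a larger fold but does not adjust p. It called 2107 genes between stroma sites against 4926, and 6437 and 6377 between tumour cells and stroma against 11376 and 11168. Against cultures it called 3050 and 2571 (RasHIGH), 3888 and 3437 (RasLOW) and 4395 and 3908 (control). In the interaction it called 1624 against 2191. Between the sites in tumour cells it called more, 460 against 419.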
